A study of Mus musculus with 14 samples.

Results

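The small heat shock proteins and alpha crystallins are one protein family, and 8 of its genes were described in the retinal veins of 2 mouse strains: Cryaa, Cryab, Hspb1, Hspb2, Hspb3, Hspb6, Hspb7 and Hspb8. They were taken by symbol from a table of 40123 genes, where all 8 have a row, and all 8 passed the filter on low values. DBA/2J mice lack working Gpnmb and develop iris disease, raised eye pressure and glaucoma with age. The comparison belongs to a study of the blood-retinal barrier in glaucoma. DBA/2J was set against DBA/2J-Gpnmb+/SjJ, the normotensive control, which carries a working Gpnmb allele. Both carry the Tyrp1 mutation of the DBA/2J background, and all mice were 9 months old. Each library came from 4 veins of 1 mouse with their main branches, dissected under fluorescence 5 minutes after 0.33 mg of sodium fluorescein per g of body weight, with 9 DBA/2J and 5 control libraries. Whole-vessel RNA was measured, so fewer cells of a type and less RNA per cell cannot be told apart.

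Proteins of this family share a conserved alpha-crystallin domain, form large or small oligomers, and hold unfolding proteins in solution without using ATP. The alpha crystallins CRYAA and CRYAB are structural proteins of the lens at very high abundance. CRYAA is largely restricted to the lens, whereas CRYAB and HSPB1 are also made in muscle, glia and stressed cells of many tissues. HSPB2, HSPB3, HSPB6 and HSPB7 are best known from heart, skeletal and smooth muscle, and HSPB8 works with the co-chaperone BAG3 in clearing misfolded proteins.

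Values are scaled counts, that is, estimated reads per gene divided by a size factor per library. Scaled totals ran from 14806322 to 22159797 per library, and the depth estimated from the value of 1 read from 8931961 reads in DBA/2J sample 1 to 33786238 in DBA/2J sample 6. Gpnmb averaged 191 ± 140 in DBA/2J veins and 1946 ± 712 in control veins (SD, n = 9 and n = 5), and the groups did not overlap. Library numbers ran from 31 to 39 in DBA/2J and from 16 to 30 in the controls, so the strain and whatever goes with library number cannot be told apart. The 12 pan-endothelial marker genes held 0.0931% to 0.333% of scaled counts in DBA/2J libraries and 0.0905% to 0.134% in control libraries. The 10 rod genes held 2.91% to 7.7% in DBA/2J libraries and 2.65% to 5.27% in control libraries, so both groups of veins carried photoreceptor RNA.

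Of the 8 genes, 5 were lower in DBA/2J than in control veins (Cryaa, Cryab, Hspb1, Hspb2 and Hspb3) and none was higher. The test was limma on log2(value + 1) over 29166 genes, with an adjusted p under 0.05. Across all genes tested 7.2% were lower and 12.1% higher, so 62.6% of the calls were higher. That split was 80.6% higher when library totals were made equal, 48.9% with quantile normalization and 48.9% once the dependence on GC content and transcript length had been taken out. The median log2 fold change of the 8 genes was -1.16, against 0.05 over all genes tested. Equal library totals raised that median of all genes to 0.19. The 5 lower genes have short transcripts, between 662.5 and 1254 nucleotides, and short genes were more often lower. In the second of 10 length bins of coding genes (774 to 1098 nucleotides), which holds Cryab, Hspb1 and Hspb3, 17.5% were lower. With the length and GC trend removed, 4 of the 8 were lower (Cryaa, Cryab, Hspb2 and Hspb3), against 7.73% of all genes. Without control sample 3 the counts over all genes were 2283 higher and 1247 lower, against 3518 and 2101 with it.

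**Figure D1:**
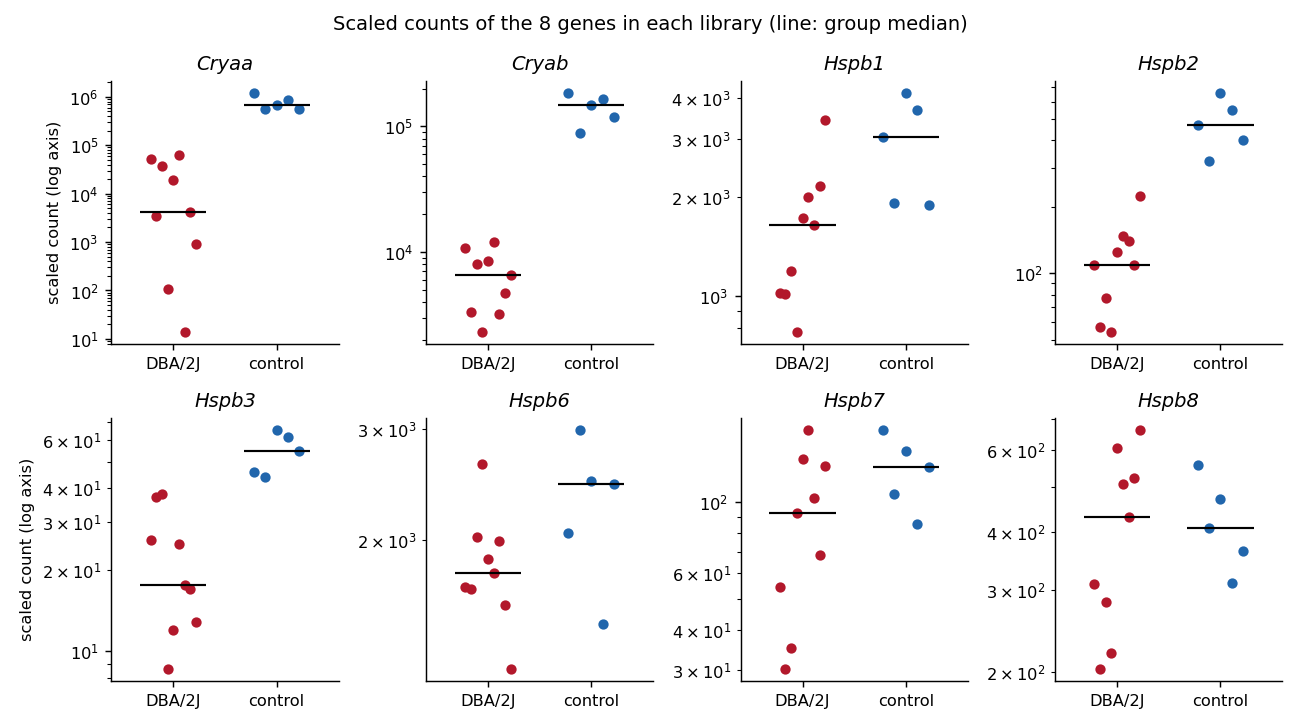
Scaled counts (log axis) of each of the 8 genes by library, with DBA/2J libraries (n = 9) on the left, control libraries (n = 5) on the right and a line at each group's median. Cryaa, Cryab, Hspb2 and Hspb3 do not overlap between the groups, and Hspb1, Hspb6, Hspb7 and Hspb8 do. The share of all genes without overlap is not given here, so this is a description of single genes.

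Cryaa (GRCm38 chr17:31677807-31681733, forward strand), the alpha-A crystallin, showed the largest difference of the 8. In DBA/2J veins its scaled counts ran from 13.7 (sample 7) through a median of 4101 to 63522 (sample 6). In control veins they were 1200607, 567108, 676143, 873477 and 557907 for samples 1 to 5. Every DBA/2J library lay below every control library. On the log2 scale the DBA/2J libraries differed far more among themselves than the controls did. The log2 fold change was -7.81 (SE 1.58, 95% interval -11.1 to -4.48, adjusted p = 0.00354, limma). The call was lost with control samples 4 and 5 alone (-7.72, adjusted p = 0.0678) and with the Muller glia mean as a covariate (-6.75, adjusted p = 0.066) or the striated muscle mean (-6.75, adjusted p = 0.145).

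The lens markers moved with it. The 12 beta and gamma crystallins measured, none of them among the 8 genes, held 0.23% ± 0.278 of scaled counts in DBA/2J libraries and 7.1% ± 2.87 in control libraries (SD, n = 9 and n = 5). This difference had a two-sided exact permutation p of 0.0005, the smallest these groups allow, and an adjusted p of 0.00375 over 15 marker lists. Their range was 0.000602% to 0.699% in DBA/2J and 4.29% to 11% in control libraries. All 12 were called lower, as were all 14 genes of the lens fibre list, and no gene of either list was at 0 in all libraries of a group. Foxe3, a transcription factor of the lens epithelium, was at 0 in 6 of the 9 DBA/2J libraries and averaged 0.912 ± 1.47 in DBA/2J and 165 ± 97.5 in control veins (SD, n = 9 and n = 5). After group means were removed, the genes most like Cryaa over the 14 libraries were Cryba2 (Pearson r = 0.999), Cryba1 (0.998) and Crygs (0.994), all crystallins, out of 11980 coding genes compared. An annotated gene on the opposite strand also shares 273 of the 2076 exonic nucleotides of Cryaa.

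The window around the start of Cryaa, from RefSeq (GRCm38.p6, forward strand, chr17:31677681-31677980), is shown because this gene followed the other crystallins. Capitals mark TGCTGA, the core of a binding site for Maf factors, which are lens regulators. Its only match on either strand begins at -108 from the start, and 19.48% of all 32851 windows in the table hold these letters.
Cryaa: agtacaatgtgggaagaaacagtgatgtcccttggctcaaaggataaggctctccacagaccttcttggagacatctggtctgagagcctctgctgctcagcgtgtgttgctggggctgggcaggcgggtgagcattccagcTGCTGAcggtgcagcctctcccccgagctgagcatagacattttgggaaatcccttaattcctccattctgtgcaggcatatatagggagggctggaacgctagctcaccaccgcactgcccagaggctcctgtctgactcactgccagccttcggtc

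Cryab (GRCm38 chr9:50751325-50756636, forward strand), the alpha-B crystallin, was lower in DBA/2J veins under every setting tried, but it did not approach 0 where Cryaa did. Its scaled counts in DBA/2J veins ran from 2291 (sample 4) through a median of 6578 (sample 9) to 11955 (sample 6). The 5 control libraries held 184314, 89200, 146559, 164787 and 119270 for samples 1 to 5. The groups did not overlap, and the highest DBA/2J library stood well below the lowest control. On the log2 scale the fold change was -4.58 (SE 0.35, 95% interval -5.32 to -3.84, adjusted p = 7.16e-07, limma). It ranged from -4.77 to -3.07 over 33 alternatives, and all of them kept the call (adjusted p up to 0.00254).

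The ratio of Cryab to Cryaa within a library separated the DBA/2J libraries from each other. It was 0.188 in sample 6, 0.202 in sample 1 and 0.214 in sample 3, all within the control range of 0.154 to 0.217. It was 0.446, 0.965, 1.15 and 7.09 in samples 5, 2, 8 and 9, 21.8 in sample 4 and 234 in sample 7. Samples 7 and 4, with Cryaa at 13.7 and 105, still held Cryab at 3206 and 2291. The mean log2 ratio was 0.80 ± 3.56 in DBA/2J and -2.44 ± 0.24 in control veins (SD, n = 9 and n = 5; two-sided exact permutation p = 0.047, adjusted p = 0.047 over 3 ratios). Of the 9 DBA/2J libraries, 6 lay above the highest control ratio. The difference in mean log2 ratio restates the fold changes of Cryab and Cryaa, and the ratio was chosen after the values were seen. Its p is therefore no separate evidence.

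On the linear scale, Cryab in the 9 DBA/2J libraries followed a least-squares line on Cryaa. The line rose by 0.127 Cryab counts per Cryaa count (SE 0.0213) from 4026 Cryab counts at a Cryaa of 0 (SE 660). The Pearson r was 0.914 (two-sided exact permutation p = 0.00043) and Spearman rho 0.917 (exact permutation p = 0.00131). Without samples 1 and 6, the farthest from the median, r was 0.756. Leaving out each library moved the slope between 0.118 and 0.138 and the value at 0 between 3461 and 4442. Read beyond its range to the Cryaa of each control library, the line gave a value for each control, and measured Cryab was 1.18 to 1.64 times that value.

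**Figure D2:**
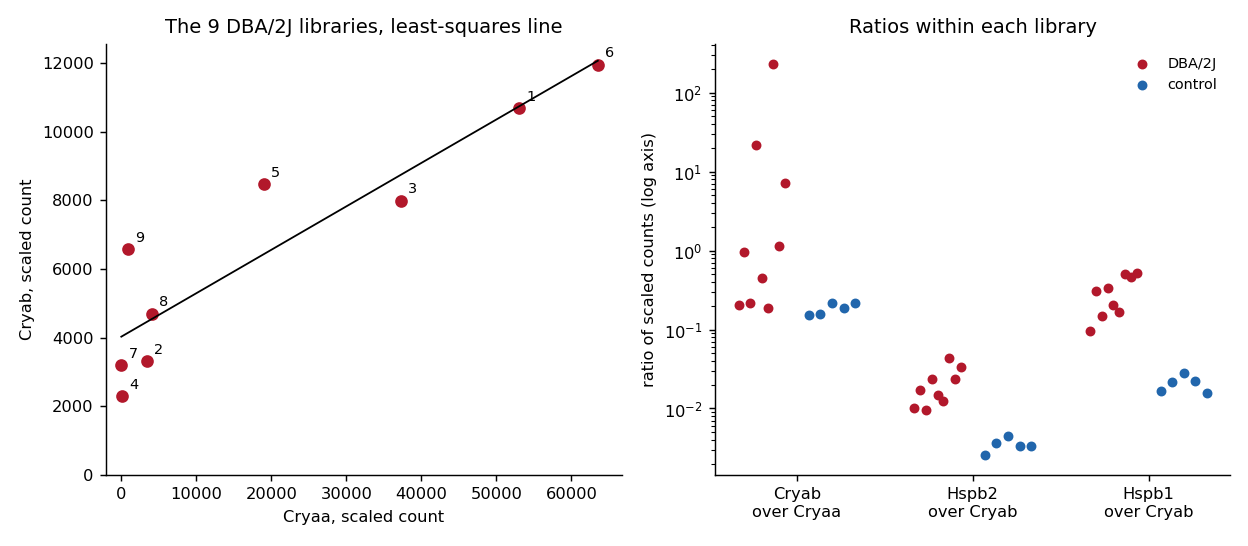
Left, Cryab against Cryaa in scaled counts in the 9 DBA/2J libraries, numbered by sample, with the least-squares line; right, ratios of scaled counts within each library (log axis), DBA/2J left of control. The line meets the vertical axis at 4026, and the ratio of Cryab to Cryaa spans 0.188 to 234 in DBA/2J against 0.154 to 0.217 in control libraries.

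The other relations with the lens markers were examined within the 9 DBA/2J libraries, where the lens mean ran from 2.30 to 10.4 on the log2 scale, below the control range of 12.3 to 13.8. The lens mean is the mean log2(value + 1) of the 12 beta and gamma crystallins. In a limma fit over 27083 genes, 1 of the 8 genes had a positive slope past the threshold, against 0.0665% of all genes. It was Cryaa, with a slope of 1.43 log2 units per log2 unit of the lens mean (SE 0.08, adjusted p = 6.13e-06). Cryab had a slope of 0.25 (SE 0.05) that did not pass (adjusted p = 0.271). The slopes of the 6 Hspb genes lay between -0.06 for Hspb7 and 0.14 for Hspb3, each with an adjusted p of 0.9999. By exact permutation over 40 relations of 8 genes with 5 marker means, Cryab and the lens mean had a Pearson r of 0.857 (permutation p = 0.00324, adjusted p = 0.0259). Spearman rho was 0.917 (permutation p = 0.00131, adjusted p = 0.0131), and r was 0.711 without samples 4 and 7. Pearson r with the lens mean was 0.0924 for Hspb1 (adjusted p = 0.817), 0.102 for Hspb2 (adjusted p = 0.817) and 0.59 for Hspb3 (adjusted p = 0.217, all exact permutation).

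**Figure D3:**
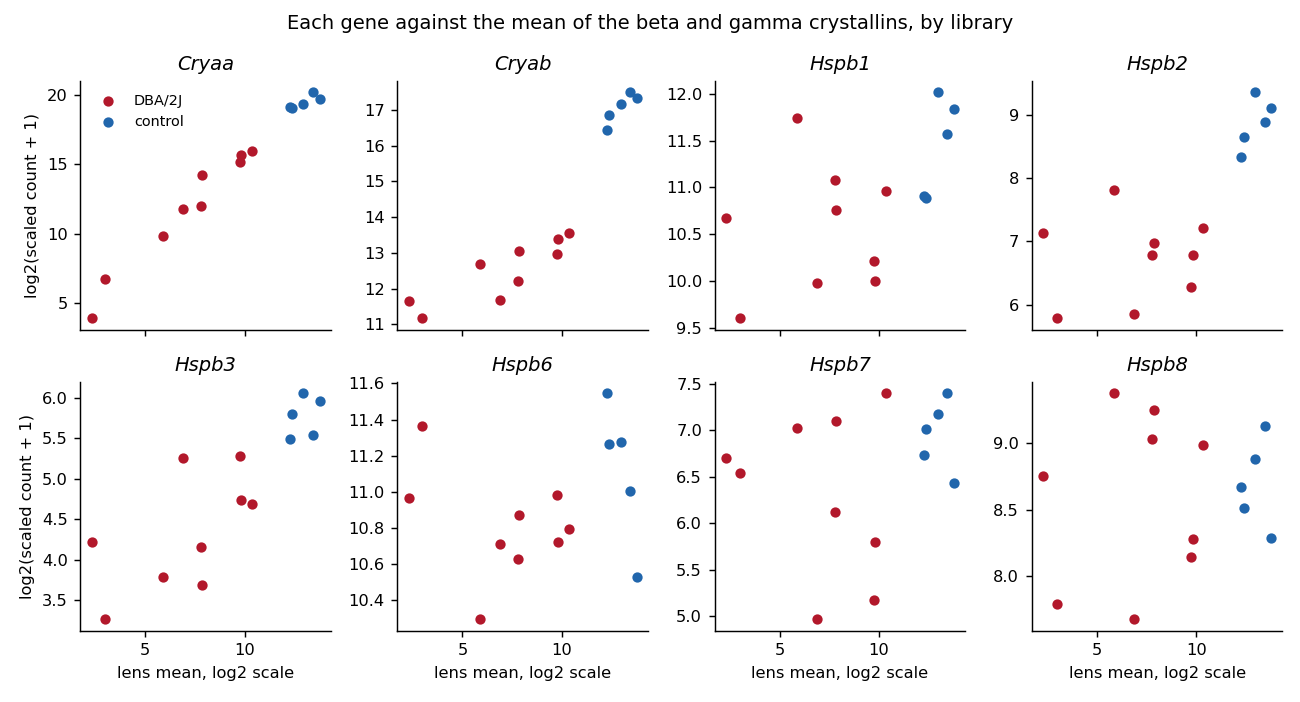
Each gene's log2(scaled count + 1) against the lens mean (mean log2 value of 12 beta and gamma crystallins) in the 9 DBA/2J and 5 control libraries. Cryaa rises along the whole axis with a slope of 1.43 within DBA/2J, Cryab with one of 0.25, and Hspb1, Hspb2, Hspb6, Hspb7 and Hspb8 show slopes between -0.06 and 0.03.

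With the lens mean as a covariate, 1 of the 8 genes was lower, against 0.0377% of all genes. It was Cryab, at -3.07 (SE 0.35, adjusted p = 0.00101, limma). In that fit Cryaa stood at 0.48 (adjusted p = 0.755), Hspb1 at -0.68 (adjusted p = 0.582), Hspb2 at -1.94 (adjusted p = 0.228) and Hspb3 at -0.59 (adjusted p = 0.671). The lens means of the groups do not overlap, so this fit reads a straight line across the gap between them. Gpnmb, the gene by which the strains differ, also lost its call in it (-2.90, adjusted p = 0.137, limma). A call lost in this fit therefore does not separate lens from strain.

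Hspb2 (GRCm38 chr9:50751078-50752354, reverse strand), a partner of the kinase DMPK in muscle, is the neighbour of Cryab and is transcribed in the opposite direction. Scaled counts in DBA/2J libraries ran from 54 (sample 4) through a median of 109.2 to 223 (sample 9). Control veins had 471, 322, 656, 549 and 400 for samples 1 to 5. Every DBA/2J library was below every control library. DBA/2J over control gave a log2 fold change of -2.13 (SE 0.30, adjusted p = 0.00041, limma). The call was lost with the lens mean as a covariate, as given for that fit, where the SE rose to 0.50. It was also lost with the striated muscle mean as a covariate (-1.61, adjusted p = 0.0687, limma). In GENCODE M21, 252 of the 834 exonic nucleotides of Hspb2 are shared with 1 of the 6 Cryab transcripts on the opposite strand. The kit does not mark strand, so reads of the shared stretch cannot be told apart.

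Hspb2 did not follow Cryab in proportion. The ratio of Hspb2 to Cryab had a median of 0.0172 in DBA/2J and 0.00335 in control veins, and all 9 DBA/2J libraries lay above the highest control (0.00448). The log2 difference was 2.44 (two-sided exact permutation p = 0.0005, adjusted p = 0.00075 over 3 ratios). It restates the fold changes of Hspb2 and Cryab, and the ratio was chosen after the values were seen. Its p is therefore no separate evidence. Within DBA/2J, Hspb2 was related to 3 marker means. With the pericyte mean it had a Pearson r of 0.903 (exact permutation p = 0.00132, adjusted p = 0.0176) and a Spearman rho of 0.933 (permutation p = 0.00075, adjusted p = 0.00999). That r was 0.774 without samples 2 and 9. With the pan-endothelial mean r was 0.866 (exact permutation p = 0.00304, adjusted p = 0.0259) and rho 0.867 (permutation p = 0.00451, adjusted p = 0.0258), and r was also 0.774 without samples 7 and 9. With the Muller glia mean r was 0.819 (exact permutation p = 0.00782, adjusted p = 0.0359) and rho 0.883 (permutation p = 0.00307, adjusted p = 0.0246), and r was 0.726 without samples 2 and 3. These 3 marker means are not separate measures, since they had pairwise r of 0.911 to 0.965 over the 9 libraries. The r of Hspb2 with library number was 0.694. The genes most like Hspb2 over the 14 libraries, group means removed, were Pdgfb (r = 0.952), Iigp1 (0.94) and Rps12 (0.929).

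Hspb3 (GRCm38 chr13:113662896-113663676, reverse strand), which pairs with HSPB2 in muscle, was the least abundant of the lower genes. The DBA/2J libraries held scaled counts from 8.62 (sample 4) through a median of 17.6 to 38 (sample 3). Values in control veins were 45.6, 43.9, 65.5, 61.3 and 54.7 for samples 1 to 5. The groups did not overlap, although the lowest library rests on about 5 estimated reads. The log2 fold change was -1.42 (SE 0.36, adjusted p = 0.011, limma). The call was lost with control samples 1 to 3 alone (-1.35, adjusted p = 0.0604), with control samples 4 and 5 alone (-1.54, adjusted p = 0.0858) and with the Muller glia mean as a covariate (-0.87, adjusted p = 0.255).

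Striated muscle markers were lower in DBA/2J, as were Hspb2 and Hspb3, whereas Hspb6 and Hspb7 did not pass. Of 12 such marker genes, 8 were lower in DBA/2J and none higher (median log2 fold change -1.66). Over all genes tested 7.2% were lower and 12.1% higher, a comparison that takes no account of transcript length. The summed share of the 12 was 0.00514% ± 0.00294 in DBA/2J and 0.0133% ± 0.00468 in control libraries (SD, n = 9 and n = 5). The share ran from 0.00263% to 0.0113% in DBA/2J and from 0.0098% to 0.0206% in control libraries (two-sided exact permutation p = 0.0025, adjusted p = 0.0125 over 15 lists). Ckm, muscle creatine kinase, averaged 106 ± 99.9 in DBA/2J and 470 ± 219 in control veins (SD, n = 9 and n = 5), and none of the 12 genes was at 0 in all libraries of a group. With the striated muscle mean as a covariate, Hspb3 stood at -1.56 (adjusted p = 0.139), Hspb1 at -0.27 (adjusted p = 0.773) and Cryab at -4.24 (adjusted p = 0.00254, limma). The part of muscle RNA in the Hspb2 and Hspb3 differences was not tested further.

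Hspb1 (GRCm38 chr5:135887919-135889563, forward strand), the stress-induced HSP27 homologue that binds actin and intermediate filaments, was lower in DBA/2J by a narrow margin. In DBA/2J veins its scaled counts ran from 774 (sample 4) through a median of 1637 to 3429 (sample 9). In control veins they were 3050, 1923, 4148, 3669 and 1891 for samples 1 to 5. The groups overlapped, with 6 of the 9 DBA/2J libraries below the lowest control. On the log2 scale the fold change was -0.89 (SE 0.30, 95% interval -1.52 to -0.26, adjusted p = 0.046, limma). Leaving out 1 library ended the call in 9 of 14 fits, those lacking control 1, control 3, control 4, or DBA/2J 1, 2, 3, 4, 5 or 7, where the adjusted p reached 0.137. It also ended once the length and GC trend was taken out (-0.64, adjusted p = 0.0562). The difference was larger with the Muller glia mean (-1.46, adjusted p = 0.0239) and the pan-endothelial mean (-1.30, adjusted p = 0.00158) as covariates.

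Hspb1 fell far less than Cryab. The ratio of Hspb1 to Cryab had a median of 0.306 in DBA/2J and 0.0216 in control veins, with all 9 DBA/2J libraries above the highest control (0.0283). The log2 difference was 3.69 (two-sided exact permutation p = 0.0005, adjusted p = 0.00075 over 3 ratios). It restates the fold changes of Hspb1 and Cryab, and the ratio was chosen after the values were seen. Its p is therefore no separate evidence.

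Within DBA/2J, Hspb1 was related by Pearson r to 3 of the 5 marker means. Its Pearson r was 0.818 with the pan-endothelial mean (exact permutation p = 0.00807, adjusted p = 0.0359), 0.793 with the Muller glia mean (exact permutation p = 0.0124, adjusted p = 0.0376) and 0.783 with the pericyte mean (exact permutation p = 0.0132, adjusted p = 0.0376). Spearman rho was 0.767, 0.783 and 0.767, and none of the 3 passed after adjustment (permutation p = 0.0214, 0.0172 and 0.0214; adjusted p = 0.0611, 0.0574 and 0.0611). Without the 2 libraries farthest from the median of each marker mean, r was 0.774, 0.806 and 0.587. With the smooth muscle mean, r was 0.478 (exact permutation p = 0.195, adjusted p = 0.357) and rho 0.317 (permutation p = 0.41, adjusted p = 0.683), and r was 0.0291 without samples 7 and 9. The 3 marker means that passed are not separate measures, since they had pairwise r of 0.911 to 0.965 over the 9 libraries and also followed library number (r = 0.783 to 0.881). The r of Hspb1 with library number was 0.857. The part of these markers in the level of Hspb1 was not tested.

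Hspb8 (GRCm38 chr5:116408491-116422864, reverse strand), the BAG3 partner, had nearly equal means in the strains. Its scaled counts in DBA/2J veins ran from 203 (sample 2) through a median of 430.5 to 664 (sample 9). The 5 control libraries held 559, 407, 471, 311 and 365 for samples 1 to 5. DBA/2J samples 1 to 4 lay below the lowest control and samples 5 and 9 above the highest. DBA/2J over control gave a log2 fold change of -0.11 (SE 0.27, 95% interval -0.69 to 0.47, adjusted p = 0.825, limma). Its sign turned when library totals were made equal (0.06, adjusted p = 0.888), with control samples 4 and 5 alone (0.19, adjusted p = 0.802), with the striated muscle mean as a covariate (0.43, adjusted p = 0.592), with the lens mean (0.046, adjusted p = 0.98) and without DBA/2J sample 2. With the Muller glia mean it was -0.85 (adjusted p = 0.0572). Within DBA/2J it went with the Muller glia mean (Pearson r = 0.859, exact permutation p = 0.00616, adjusted p = 0.0357; Spearman rho = 0.867, permutation p = 0.00451, adjusted p = 0.0258). Without samples 2 and 3 that r was 0.784. Pearson r also passed with the pericyte mean (0.796) and the pan-endothelial mean (0.806, exact permutation adjusted p = 0.0376 for each). Spearman rho passed with the pericyte mean (0.833, adjusted p = 0.0413) but not with the pan-endothelial mean (0.783, adjusted p = 0.0574). These marker means are not separate measures, as given for Hspb1. The r of Hspb8 with library number was 0.784.

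Hspb1, Hspb2 and Hspb8 varied together among the DBA/2J libraries, a description over 9 libraries with no test. The r of their log2 values was 0.914 for Hspb1 with Hspb8, 0.907 for Hspb2 with Hspb8 and 0.888 for Hspb1 with Hspb2. Cryaa stood apart from them, with r of 0.0249 to Hspb1, 0.0377 to Hspb2 and 0.0901 to Hspb8, and had its highest r with Cryab (0.839). Hspb6 ran against Hspb1 (r = -0.748).

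RefSeq windows around annotated starts are shown for Hspb1, Hspb8 and Hspb6, which hold the same 8 letters. A link of these letters to how the genes varied among the libraries was not tested. Capitals mark GAANNTTC, a pair of facing units of the element bound by heat shock factors, which reads the same on both strands. Of all 32851 windows 7.86% hold it, and 8.52% hold TTCNNGAA, the other arrangement searched, of which these 3 windows hold none. In Hspb1 (chr5:135887669-135887968, forward strand, GRCm38.p6) the matches begin at -117 and -97 from the start. In Hspb8 (chr5:116422815-116423114, reverse strand) the match begins at 3. In Hspb6 (chr7:30553051-30553350, forward strand), the second of 2 windows of that gene, it begins at -120. A match is no evidence of a working site. Windows were matched for 6 of the 8 genes, not for Cryab and Hspb2, and Hspb3 has 1 match of GAANNTTC and Hspb7 none.
Hspb1: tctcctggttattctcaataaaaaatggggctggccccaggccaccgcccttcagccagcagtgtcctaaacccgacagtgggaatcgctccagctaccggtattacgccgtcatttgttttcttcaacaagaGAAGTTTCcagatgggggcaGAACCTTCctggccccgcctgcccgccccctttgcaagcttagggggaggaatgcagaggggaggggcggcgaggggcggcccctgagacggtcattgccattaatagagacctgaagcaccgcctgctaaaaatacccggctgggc
Hspb8: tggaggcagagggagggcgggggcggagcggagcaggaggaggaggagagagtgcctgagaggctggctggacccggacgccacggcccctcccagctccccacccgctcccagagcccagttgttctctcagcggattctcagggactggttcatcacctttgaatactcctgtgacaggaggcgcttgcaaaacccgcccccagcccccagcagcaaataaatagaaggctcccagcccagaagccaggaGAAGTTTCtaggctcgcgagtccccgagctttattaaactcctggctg
Hspb6: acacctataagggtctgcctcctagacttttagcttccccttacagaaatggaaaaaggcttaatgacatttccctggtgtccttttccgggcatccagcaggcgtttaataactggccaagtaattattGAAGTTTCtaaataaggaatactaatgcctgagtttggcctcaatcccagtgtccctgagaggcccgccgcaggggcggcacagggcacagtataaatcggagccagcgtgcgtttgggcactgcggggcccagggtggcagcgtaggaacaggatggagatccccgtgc

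Hspb6 (GRCm38 chr7:30552178-30555443, forward strand), the HSP20 homologue that relaxes smooth muscle when phosphorylated, was steady across the libraries. Scaled counts in DBA/2J libraries ran from 1255 (sample 9) through a median of 1777 to 2638 (sample 4). Control veins had 2058, 2988, 2481, 1478 and 2456 for samples 1 to 5. The groups overlapped, and only sample 9 of DBA/2J was below the lowest control. The log2 fold change was -0.31 (SE 0.18, 95% interval -0.68 to 0.06, adjusted p = 0.232, limma), which did not pass in any of 33 alternatives (adjusted p from 0.0772). The genes most like it were Spg7 (r = 0.971), Nxnl1 (0.943) and the rod arrestin gene Sag (0.929). Exons of Lin37 and Proser3 on the opposite strand share 3 and 122 of its 2299 exonic nucleotides, and Gm38670 on the same strand shares 77.

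Hspb7 (GRCm38 chr4:141420779-141425311, forward strand), a cardiovascular member that binds filamin C, did not pass either. The DBA/2J libraries held scaled counts from 30.2 (sample 2) through a median of 92.2 to 167.7 (sample 6). Values in control veins were 167.6, 106, 144, 85.3 and 128 for samples 1 to 5. The groups overlapped, with 4 DBA/2J libraries below the lowest control. On the log2 scale the fold change was -0.64 (SE 0.37, 95% interval -1.42 to 0.15, adjusted p = 0.248, limma). It passed with the Muller glia mean as a covariate (-1.78, adjusted p = 0.00478) and with the pan-endothelial mean (-1.14, adjusted p = 0.012). With the length and GC trend removed the fold change was -0.88 (adjusted p = 0.0694). Its sign turned with the striated muscle mean (0.11, adjusted p = 0.933). Within DBA/2J its Pearson r with the Muller glia mean was 0.945 (exact permutation p = 0.000254, adjusted p = 0.00507), and 0.895 without samples 2 and 3. Spearman rho was 0.933 (permutation p = 0.00075, adjusted p = 0.00999). Pearson r also passed with the pericyte mean (0.831, adjusted p = 0.0357) and the pan-endothelial mean (0.799, adjusted p = 0.0376, both exact permutation). Spearman rho passed with the pericyte mean (0.817, adjusted p = 0.0479) but not with the pan-endothelial mean (0.783, adjusted p = 0.0574). These marker means are not separate measures, as given for Hspb1. The r of Hspb7 with library number was 0.652.

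**Figure D4:**
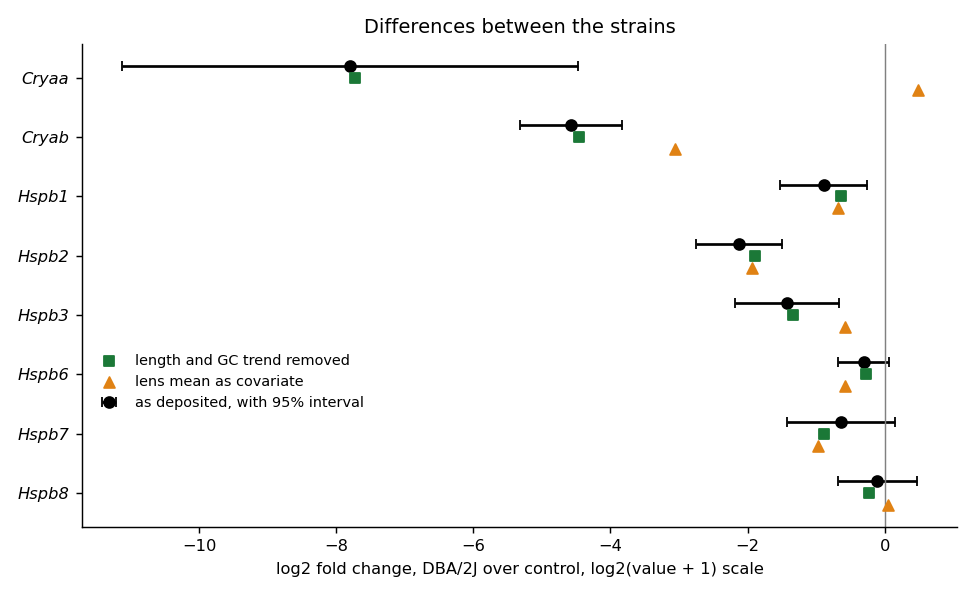
Log2 fold change of each gene, DBA/2J over control, with the 95% interval as deposited (black), after removal of the length and GC trend (green squares) and with the lens mean as a covariate (orange triangles). The intervals of Cryaa, Cryab, Hspb1, Hspb2 and Hspb3 lie below 0, and with the lens mean Cryaa moves to 0.48 while Cryab stays at -3.07.

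Per length, Cryaa and Cryab dominated the family in control veins but not in every DBA/2J library. Scaled counts per kb of transcript averaged 16074 ± 19878 in DBA/2J and 618061 ± 215075 in control veins for Cryaa, and 7775 ± 4083 in DBA/2J and 166461 ± 44339 in control veins for Cryab (SD, n = 9 and n = 5). In DBA/2J the order by mean was Cryaa, Cryab, Hspb1, Hspb6, Hspb8, Hspb2, Hspb7 and Hspb3. Cryaa exceeded Cryab in 4 of those 9 libraries, Hspb1 exceeded Hspb6 in 5 and Hspb7 exceeded Hspb3 in 6, so these neighbours did not separate. Ranges were fully separate between Hspb6 and Hspb8 and between Hspb2 and Hspb7. In control veins the order was Cryaa, Cryab, Hspb1, Hspb6, Hspb2, Hspb8, Hspb3 and Hspb7, with overlapping ranges for Hspb1 and Hspb6 and for Hspb3 and Hspb7 alone. Hspb2 stood below Hspb8 in all 9 DBA/2J libraries and above it in all 5 controls.

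Of the summed counts per kb of the 8 genes, Cryaa made up 0.145% to 73.6% in DBA/2J and 74.9% to 81.1% in control libraries. Hspb1 made up 1.93% to 26.8% in DBA/2J and 0.282% to 0.628% in control libraries. Hspb6 made up 1.89% to 33.3% in DBA/2J and 0.121% to 0.39% in control libraries. All 8 genes together held 0.0341% to 0.42% of scaled counts in DBA/2J and 3.53% to 6.38% in control libraries. The 6 Hspb genes held 0.0234% ± 0.00331 in DBA/2J and 0.0317% ± 0.00315 in control libraries (SD, n = 9 and n = 5).

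**Figure D5:**
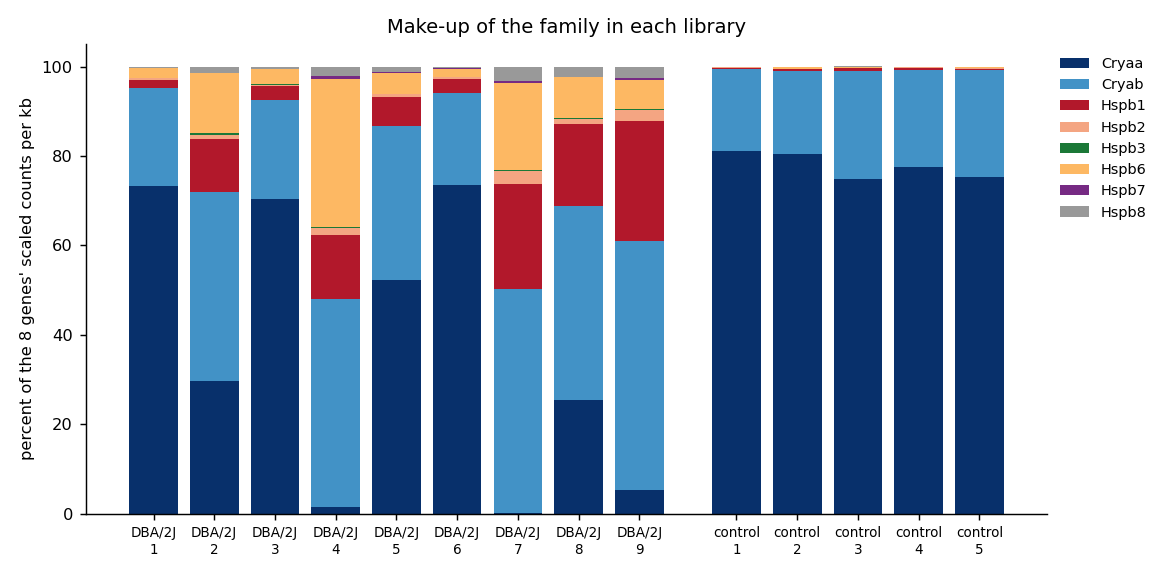
Make-up of the family in each library, as the percent of the 8 genes' scaled counts per kb of transcript, with DBA/2J libraries on the left and control libraries on the right. Cryaa takes 74.9% to 81.1% of every control bar and between 0.145% and 73.6% of the DBA/2J bars.

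Most genes that control or work with the family did not pass the test. The counts of those that did stand beside 12.1% higher and 7.2% lower over all genes tested, and take no account of transcript length. In the shortest length bin of coding genes 21.7% were lower and 8.77% higher, and in the longest 4.19% were lower and 31.3% higher. The part of transcript length in the calls of the genes below was not tested. Of 5 genes of the heat shock factors and their regulator Hsbp1, 2 were lower in DBA/2J and none higher. Hsf4, the heat shock factor of the lens, averaged 104 ± 13.5 in DBA/2J and 232 ± 36.4 in control veins (SD, n = 9 and n = 5; log2 fold change -1.14, SE 0.17, adjusted p = 0.000617, limma). Hsbp1, a negative regulator of these factors, fell by 0.50 (adjusted p = 0.0169). Of 15 chaperone partners 3 were higher and 2 lower. Hspa1b rose by 0.95 (adjusted p = 0.00628) and Hsph1 by 0.72 (adjusted p = 0.0207), while Hspe1, the mitochondrial HSP10, fell by 0.93 (adjusted p = 0.00218) and Stub1, a ubiquitin ligase for chaperone clients, fell by 0.49 (adjusted p = 0.0184). Hspa1b has a near-identical copy, so its reads are uncertain. Of 6 kinase genes that act on HSPB1 directly or upstream, 2 were higher and none lower. Mapk14 rose by 0.71 (adjusted p = 0.00459) and Prkd1 by 0.80 (adjusted p = 0.0159). Hspb9 and Odf1, 2 further family members known from the testis, were near 0: Hspb9 was at most 4.03 in DBA/2J and 6.09 in control veins, and Odf1 at most 3.35 in DBA/2J and 0 in control veins.

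Of 8 genes of filaments that these chaperones bind, 2 were higher, 2 were lower and Des, Vim, Synm and Lmna did not pass. They stand against the same 12.1% and 7.2% over all genes. These counts and those of the glial lists below take no account of transcript length. The lens filament genes fell, Bfsp2 to a log2 difference of -4.75 (adjusted p = 0.000113) and Bfsp1 to one of -5.64 (adjusted p = 0.000754, limma). Flnc, filamin C, averaged 188.5 ± 111 in DBA/2J and 43.1 ± 18.1 in control veins, and Gfap, the glial filament, 13991 ± 9222 in DBA/2J and 4612 ± 2392 in control veins (SD, n = 9 and n = 5). Both rose, Flnc by 1.87 (adjusted p = 0.0115) and Gfap by 1.48 (adjusted p = 0.0158). Of 7 astrocyte genes, which include Gfap, 1 was higher and 1, S100b, was lower (-1.31, adjusted p = 0.0164, limma). The astrocyte share did not pass (exact permutation adjusted p = 0.0899 over 15 lists). Of 12 Muller glia markers 5 were higher and none lower, and Rlbp1, Glul, Hes1 and Car14 had negative fold changes that did not pass. The Muller glia share was 0.538% ± 0.146 in DBA/2J and 0.346% ± 0.0447 in control libraries (exact permutation p = 0.0115, adjusted p = 0.0431 over 15 lists). That call was lost without any 1 of the 5 controls, or DBA/2J sample 6 or 8 (adjusted p up to 0.115).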

How the data were processed

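Retinal vein RNA was sequenced in 9 DBA/2J and 5 control mice. Per the labels' protocols, about 100 pg of RNA was amplified with SMART-Seq v4 and made into Nextera XT libraries. Kallisto was run against GRCm38 and GENCODE M23 per the design text; GRCm39 and sleuth stand in the submitters' processing notes. The deposited values are signal per gene symbol, which the values show to be estimated counts divided by a size factor; its derivation is not given. Whole reads came out for 19.2% to 22.2% of values (tolerance 0.01), so no count model was run, although the design had kept one for count data.

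Rows whose symbol had become a date (26 of 40149) were left out. For testing, a gene needed a value of 1 in 5 libraries. limma 3.58.1 (trend, R 4.3.3) was run on log2(value + 1), group as the only term, two-sided, Benjamini-Hochberg at 0.05. Fold changes are on that scale and understate the change of low genes. The slope fit needed a value of 1 in 5 DBA/2J libraries. Coordinates, median transcript length and GC content came from GENCODE M21 (39019 symbols matched). The trend on length and GC was a spline of 5 degrees of freedom each per library. Shares, ratios and relations were tested by exact permutation. P-values measure the spread between mice.

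The members and lists were chosen with earlier results of these data known, and the 3 ratios, the Cryab line and 2 covariates (striated muscle, corneal epithelium) after the values were seen. Named were the 8 genes, Gpnmb, and the 3 coding genes most like each member above 5 CPM. Of some lists, called genes were named from the first 4 by p, with some genes that did not pass. Other called genes are given as counts alone. Hspb9 and Odf1 were named as counts of few. The fits were checked on simulated data, with changes put into genes of at least 5 CPM. The group fit recovered 62% of 2-fold and 97% of 4-fold changes, and 4.22% of its calls were unchanged genes. A 2-fold change that does not pass can therefore be missed. The slope fit recovered 86% of slopes of 0.3 and 98% of slopes of 0.6. Simulated noise was independent between genes, and more genes were given a slope than the 18 called in the real fit. These rates therefore need not hold there. In the real fit the lens genes Lim2, at 0.91 (adjusted p = 0.114), and Lenep, at 0.78 (adjusted p = 0.685, limma), did not pass. A slope that does not pass can be missed. Every pair of libraries within a group differed by more than sampling noise. Without molecular identifiers, the reads behind a value limit its counting error alone.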

Additional observations from a re-analysis of the deposited data

How the results depend on the processing

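Across up to 33 alternatives per gene, direction and call of Cryab held in 33 of 33, that of Hspb6 in 33, Hspb2 in 31, Hspb7 in 30, Cryaa in 29, Hspb8 in 28, Hspb3 in 26 of 32 (it is below the filter at 5 CPM) and Hspb1 in 15. Values below are log2 fold changes, DBA/2J over control, with the limma adjusted p. Hspb1 lost its call with a pseudocount of 0.1 (-0.89, 0.05), with no filter (-0.89, 0.083), with equal library totals (-0.72, 0.068), with the length and GC trend removed (-0.64, 0.0562), with array weights (-0.70, 0.126), with control samples 1 to 3 alone (-0.94, 0.102) and with control samples 4 and 5 alone (-0.81, 0.256). Hspb8 turned positive with equal library totals (0.064) and with control samples 4 and 5 alone (0.19). Control samples 4 and 5 alone also gave Cryaa -7.72 (0.0678) and Hspb3 -1.54 (0.0858), and 2 members lower; control samples 1 to 3 alone gave Hspb3 -1.35 (0.0604) and 3 members lower.

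With the lens mean as a covariate Cryaa was 0.48, Hspb1 -0.68, Hspb2 -1.94, Hspb3 -0.59, Hspb8 0.046 and Gpnmb -2.90 (0.137, call lost), and 1 member was lower. The Muller glia mean gave Cryaa -6.75, Hspb1 -1.46 (0.0239), Hspb3 -0.87, Hspb7 -1.78 and Hspb8 -0.85 (0.0572), with 4 members lower. The pan-endothelial mean gave Hspb1 -1.30 (0.00158) and Hspb7 -1.14, with 6 members lower. Of all 29166 genes tested, 3146 were higher and 2504 lower in that fit. The striated muscle mean, added after the values were seen, gave Cryaa -6.75, Hspb1 -0.27, Hspb2 -1.61, Hspb3 -1.56, Hspb7 0.11 and Hspb8 0.43, and 1 member was lower. The corneal epithelium mean, added likewise, changed no member's call. Counts of genes higher and lower in DBA/2J were 5428 and 1308 with equal totals, 697 and 1252 with the Muller glia mean, 2 and 11 with the lens mean, 322 and 183 with the striated muscle mean, 2334 and 1373 with control samples 1 to 3, and 1673 and 773 with control samples 4 and 5. With the length and GC trend removed 2110 were higher. The cause of these changes was not tested.

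With the replicate number as a block, Hspb3 was at -1.32 (adjusted p = 0.119), and 1408 genes were higher and 1057 lower. Same-numbered mice did not deviate together (r of deviations from the group means -0.0824 to 0.0154 over 5 pairs). These values gave no sign that the numbers pair mice, but cannot exclude it. Leaving out 1 library moved Hspb1 between -1.04 and -0.75, Hspb8 between -0.21 and 0.00496 (positive without DBA/2J sample 2), the genes higher between 2283 and 3974 and the genes lower between 1247 and 2341. Slopes on the lens mean moved between -0.0608 and 0.0537 for Hspb1, -0.0578 and 0.089 for Hspb2, -0.0468 and 0.00511 for Hspb6, and -0.0377 and 0.0649 for Hspb8; all 4 turned sign without DBA/2J sample 4, and those of Hspb1 and Hspb2 also without sample 6. Differences in share, in percentage points, moved between 0.151 and 0.213 for Muller glia, 0.0281 and 0.0383 for pericytes (past the threshold without DBA/2J sample 2) and -1.13 and -0.536 for red cells (past it without DBA/2J sample 9).

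Depth limits Hspb3 most, at 5 to 47 estimated reads per DBA/2J library and 48 to 60 per control library. The lens means of the strains do not overlap, and control library numbers all precede those of DBA/2J; neither can be told apart from strain.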

Other observations

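Marker genes of other cell types of the eye were also called in these veins. The counts stand beside 12.1% higher and 7.2% lower over all genes tested, and take no account of transcript length. Of 9 retinal ganglion cell genes 3 were lower in DBA/2J and none higher (limma), and their share was 0.0231% to 0.153% in DBA/2J and 0.0797% to 0.114% in control libraries. Of 8 leukocyte genes 3 were higher and none lower, with shares of 0.0147% to 0.145% in DBA/2J and 0.0175% to 0.0382% in control libraries. Of 12 pan-endothelial genes 4 were higher and none lower. Neither the ganglion cell nor the leukocyte share passed by exact permutation (adjusted p = 0.535 for ganglion cells and 0.127 for leukocytes, over 15 lists). Of 9 pigment cell genes and 7 corneal and conjunctival genes, 2 were lower in each list. Smooth muscle genes had 1 higher and 1 lower of 10, near the rates over all genes. Their share was 0.035% ± 0.0143 in DBA/2J and 0.0422% ± 0.00443 in control libraries (SD, n = 9 and n = 5, exact permutation adjusted p = 0.376).

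Hspb1 was most like Gng5 (Pearson r = 0.978), Bcl2a1b (0.965) and Rpl13 (0.962) over the 14 libraries with group means removed. Cryab was most like the lens filament genes Bfsp2 (0.925) and Bfsp1 (0.893), then Rheb (0.885). Hspb7 was most like Ctnnd1 (0.951), Abcc4 (0.944) and Slc2a1 (0.937), and Hspb8 like Capzb (0.953), Alas1 (0.951) and Gstm7 (0.949).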
